A study of Mus musculus with 2 samples.

Results

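Glycan chains on proteins and lipids are built one sugar at a time by glycosyltransferases of the Golgi, each of which adds a given sugar in a given linkage. The enzymes described here start O-linked chains with N-acetylgalactosamine (Galnt), branch them (Gcnt), branch N-linked chains (Mgat), lengthen chains with galactose and N-acetylglucosamine (B4galt, B3galt, B3gnt) and cap them with sialic acid (St3gal, St6gal, St6galnac, St8sia). They build the chains to which fucosyltransferases add fucose, and in blood cells the finished chains serve as ligands of selectins, galectins and the sialic acid receptors called Siglecs.

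The genes were chosen by symbol, as all genes of these 10 families that had a probe set with 1 gene symbol in the platform annotation, and 72 of the 22180 genes measured met this rule. They were read on 2 Affymetrix whole-transcript arrays, 1 per group, both hybridised with RNA of spleen cells from Fx-/- mice. The gene Fx (current symbol Gfus) is needed to make GDP-fucose from mannose, so such mice rely on fucose from outside, and both groups carry this genotype. The first group was labelled fucose-treated and the other was given no fucose, and both were labelled cDC1, the conventional type 1 dendritic cell. No wild-type array was used here, and the labels give neither the number, age nor sex of the mice nor the length of treatment. The cells were enriched with beads, by removing cells with B220 or CD11b and then selecting cells with CD11c. Since each group has 1 array, no value below has a replicate check, no test of a difference was possible, and the number of arrays limits the precision.

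Each value is a log2 intensity, and each difference is the array without fucose minus the fucose-treated array. A probe set's level depends on how well its probes respond, so levels are compared between arrays and not between genes. A gene counted as past the intensity limit where its mean log2 intensity over both arrays reached 2.88, the median of all genes. Of the 72 glycosyltransferase genes 39 were past it, as were 11090 genes in all. The other 33 had a mean under it, though some, such as Gcnt1 and B3gnt8, lay above it on 1 array. Dim signal understates differences.

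Markers of the labelled cell type and of others were read on both arrays. The 9 measured cDC1 genes ran from 2.90 (the chemokine receptor gene Xcr1) to 8.37 (Cd8a, which T cells also express) on fucose, and from 3.43 (Xcr1) to 8.36 (Naaa) without it. The cDC1 transcription factor gene Batf3 had 4.58 on fucose and 5.49 without it, and Irf8, another one, had 4.18 and 6.68. Of these 9 genes 7 were higher without fucose and 2 lower, Itgae (6.02 and 5.64) and Cd8a (8.37 and 8.22). Itgax, which encodes the selected CD11c, read 3.83 and 3.86. The 9 measured T cell genes ran from 7.51 to 11.20 on fucose and from 7.44 to 11.05 without it, so T cell RNA was read on both arrays, and these levels do not give the share of a cell type. All 9 T cell genes were lower without fucose, with a median difference of -0.24. The 10 granulocyte precursor genes had positive differences with a median of 4.30, and 9 passed 2-fold. The median was 2.69 for 5 erythroid genes, 3.79 for 3 basophil genes, 2.17 for 5 cell cycle genes and 0.92 for 9 cDC1 genes. Xist, which acts on the inactive X chromosome, had 8.26 on fucose and 2.82 without it, and the Y-linked gene Uty had 2.14 and 5.26. These shifts lie between the same 2 arrays as every difference below, so fucose supply, cell makeup and the sex-linked difference cannot be told apart, nor can fewer cells of a type and less RNA per cell.

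Most glycosyltransferase genes had slightly lower values without fucose. Of the 39 genes past the limit, 27 had a difference below 0, 11 above 0 and 1 at 0, and their median was -0.20. For 5 of the 39 (B3galt4, B3galt6, Galnt9, St6galnac1 and B4galt6) the array with the lower value lay under the limit, so they passed it through the other array alone. Among all genes past the limit 56.5% had a difference below 0, and the median was -0.05. The direction of the glycosyltransferase median depended on the scaling, since centring all differences on the T cell genes turned it to 0.05, with 18 of the 39 below 0, while the median of all genes moved to 0.20 with 24.1% below 0. No glycosyltransferase gene was at least 2-fold higher without fucose, where 2.37% of all genes past the limit were. At least 2-fold lower values were found for 2 of the 39, St8sia6 and B3galt4, against 0.514% of all genes, and only St8sia6 of these lay above the limit on both arrays. At the lower threshold of 1.5-fold, 4 of the 39 were lower (St8sia6, B3galt4, B3galt6 and Galnt6), against 4.27% of all genes, and B4galt6 alone was higher, against 5.77%.

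**Figure D1:**
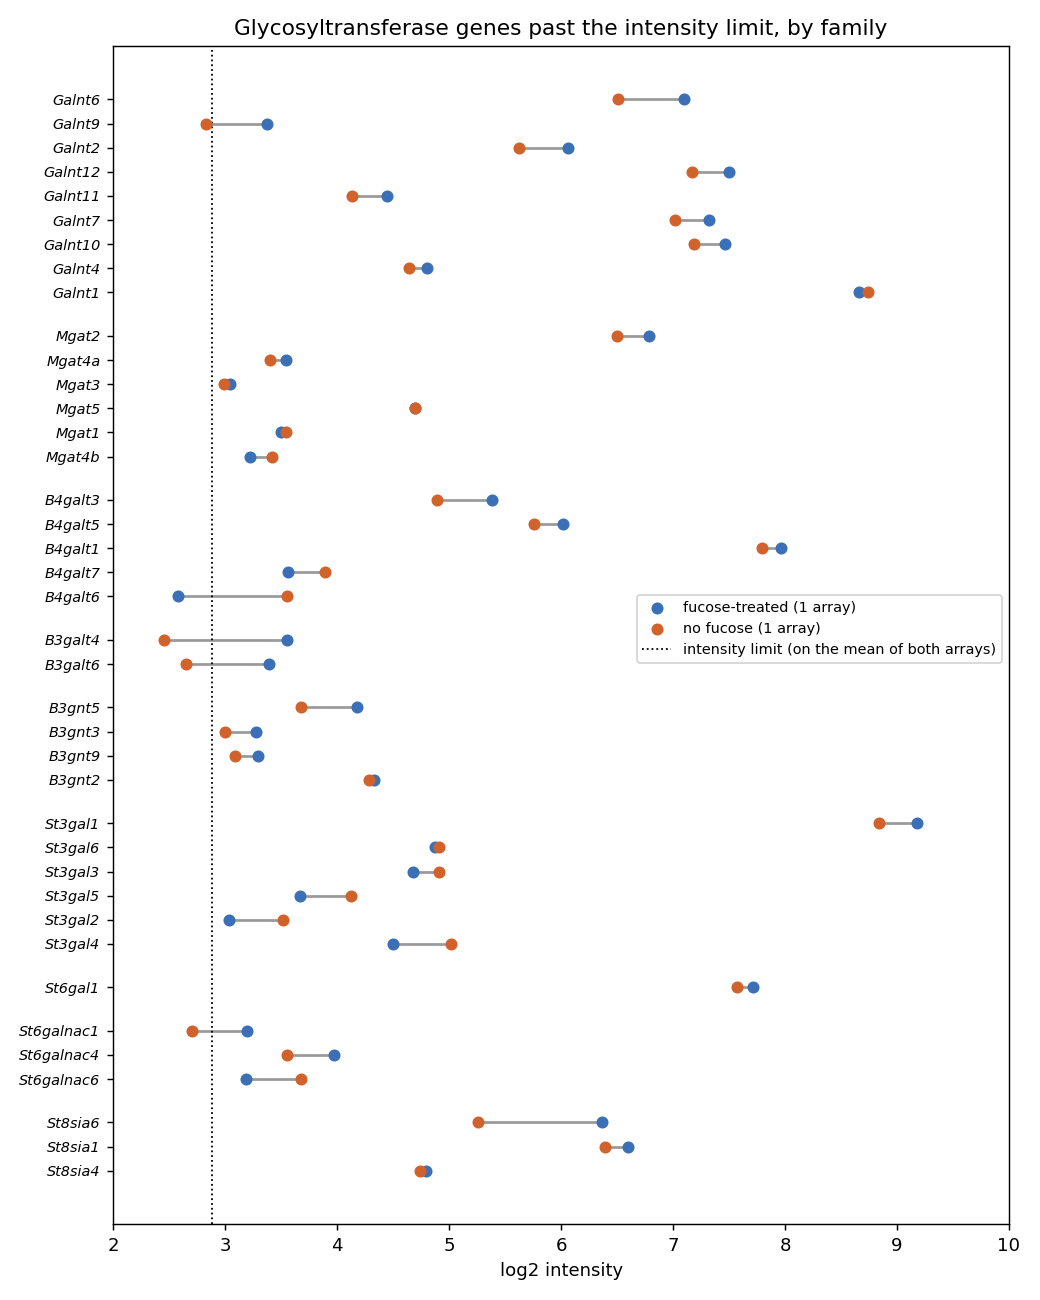
Log2 intensity (horizontal axis) of the 39 glycosyltransferase genes past the intensity limit on the fucose-treated array (blue) and the array without fucose (orange), in rows by family, with a line joining the points of a gene. The dotted line is the limit of 2.88 on the mean of both arrays; the 4 genes at least 1.5-fold lower without fucose are St8sia6, B3galt4, B3galt6 and Galnt6, and for B3galt4, B3galt6, B4galt6, Galnt9 and St6galnac1 one of the points lies under the limit.

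The sequences just upstream of the transcription start are shown for the genes past the intensity limit that differed by 1.5-fold or more, since these carry the largest differences among genes past it. The set of RefSeq starts used here (GRCm38.p6) held 54 of the 72 genes, and 4 of these 5. B4galt6 was missing from this set, so no window is shown for it. Each run below is the 250 bases before the start, read 5′ to 3′ on the gene's strand. Capitals mark matches, on either strand, to GGGCGG (the GC box bound by Sp factors), CCGGAA (a core bound by Ets factors), TGGGAA (a core bound by RBPJ, the DNA-binding partner of Notch) and CACGTG (an E-box), except in B3galt6, where they mark a repeated unit.
St8sia6, chr2:13793521-13793770, minus strand: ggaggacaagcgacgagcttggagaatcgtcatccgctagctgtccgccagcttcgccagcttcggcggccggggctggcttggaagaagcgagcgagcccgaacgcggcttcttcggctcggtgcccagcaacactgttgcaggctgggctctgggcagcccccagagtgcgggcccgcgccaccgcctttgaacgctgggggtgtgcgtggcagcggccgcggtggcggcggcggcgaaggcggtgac
B3galt4, chr17:33951489-33951738, minus strand: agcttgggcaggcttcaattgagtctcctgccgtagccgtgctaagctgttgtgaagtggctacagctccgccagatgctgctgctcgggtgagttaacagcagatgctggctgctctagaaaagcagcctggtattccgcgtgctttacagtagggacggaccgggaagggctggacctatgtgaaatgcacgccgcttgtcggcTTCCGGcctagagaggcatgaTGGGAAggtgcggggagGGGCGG
B3galt6, chr4:155992679-155992928, minus strand: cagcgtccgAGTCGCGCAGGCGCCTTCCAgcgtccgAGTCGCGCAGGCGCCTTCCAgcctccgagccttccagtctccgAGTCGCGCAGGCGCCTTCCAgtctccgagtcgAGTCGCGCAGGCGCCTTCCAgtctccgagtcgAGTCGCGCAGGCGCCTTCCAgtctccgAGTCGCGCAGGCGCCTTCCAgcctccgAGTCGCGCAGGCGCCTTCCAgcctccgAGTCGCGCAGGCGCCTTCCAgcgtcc
Galnt6, chr15:100729377-100729626, minus strand: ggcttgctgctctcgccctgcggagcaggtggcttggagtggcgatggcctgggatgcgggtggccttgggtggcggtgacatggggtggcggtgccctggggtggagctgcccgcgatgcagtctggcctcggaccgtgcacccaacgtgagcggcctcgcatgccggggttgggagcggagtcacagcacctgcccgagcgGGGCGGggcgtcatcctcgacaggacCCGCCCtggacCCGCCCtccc

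No motif was shared by all 4 windows. St8sia6 held none of the 4 motifs and 30 CG dinucleotides, more than 94.1% of all windows of this length. B3galt4 held 14 CG dinucleotides and 1 match each to the GC box and the Ets and RBPJ cores, the Ets match on the opposite strand. B3galt6 held none of the 4 motifs. It held 8 copies of the 20-base unit AGTCGCGCAGGCGCCTTCCA, and 0.204% of all windows held any 20-base word as often. The upstream start of Galnt6 held 3 GC boxes, and a further listed start of this gene, not printed, held 1 RBPJ core and no GC box. Over all 32851 windows, 32.7% held a GC box, 12.0% an Ets core, 21.6% an RBPJ core and 6.02% an E-box. The 76 windows of the 54 glycosyltransferase genes with a start, past the limit or under it, held them in 50%, 11.8%, 21.1% and 6.58%. Their median was 13.5 CG dinucleotides against 6 over all windows. The 37 windows of those past the limit held them in 23, 4, 10 and 1 cases, with a median of 14. The windows over all genes were not chosen by intensity, so they are no like comparison for these 37. A match of letters is a description of the window and not of a factor bound there.

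St8sia6 had the largest difference among the genes well above the intensity limit. This enzyme joins a sialic acid to another one, mainly on O-linked chains. Its intensity was 82.2 on fucose and 38.4 without it, or 6.36 and 5.26 on the log2 scale, a 2.14-fold lower value (-1.10). The fucose-treated array was thus the higher one. Of the 555 genes of like level, 3.24% had a difference at least this large in either direction. Loess, quantile normalisation, median centring and T cell centring gave -1.01, -1.04, -1.05 and -0.86, each at least 1.5-fold lower. The centrings subtract a constant too small to bring this gene under 1.5-fold. The other alternative settings could not change its value, as it has 1 probe set.

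The other St8sia genes past the limit differed little. St8sia1, which makes the ganglioside GD3, had 6.60 on fucose and 6.39 without it. St8sia4, a polysialic acid synthase, had 4.80 and 4.74. The family's median of -0.21 became 0.04 with centring on the T cell genes, which moved that of all genes past the limit to 0.20. St8sia2, St8sia3 and St8sia5 were under the limit.

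The St3gal family, whose enzymes put sialic acid on galactose in alpha-2,3 linkage, lay mostly on the other side. Among all genes past the limit 56.5% were lower without fucose. All 6 St3gal genes were past the limit and 5 of them were higher, with a median difference of 0.34, each by less than 1.5-fold. With loess and quantile normalisation this median was 0.40 and 0.39. Median centring (0.39) and T cell centring (0.58) raise every difference by a constant, so they could not turn it negative. After T cell centring the median of all genes past the limit was 0.20. St3gal4, which caps the chains that become sialyl Lewis x, had 4.50 on fucose and 5.02 without it (0.52). St3gal2, which sialylates gangliosides and O-linked chains, had 3.03 and 3.52 (0.49), and St3gal5, the GM3 synthase, had 3.67 and 4.12 (0.45). Differences this large or larger were found in 15.7%, 19.5% and 28.3% of genes of like level. St3gal3 had 4.68 and 4.91, and St3gal6, another enzyme of sialyl Lewis x capping, had 4.88 and 4.91. St3gal1, which caps the core 1 O-glycan, was the exception, with 9.18 on fucose and 8.84 without it (-0.34).

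Sialyltransferases that form the alpha-2,6 linkage went in both directions. St6gal1, which caps N-linked chains, had 7.71 on fucose and 7.57 without it, a difference of -0.14, or 0.10 once centred on T cell genes. Its relative St6gal2 was under the limit, with 2.58 and 2.46. St6galnac1, the sialyl-Tn synthase, had 3.20 and 2.71 (-0.49), the latter under the limit. St6galnac4, which adds a second sialic acid to sialylated core 1, had 3.97 and 3.55 (-0.42). St6galnac6, which acts on gangliosides, had 3.19 and 3.68 (0.49). St6galnac4 and St6galnac6 are next to each other on chromosome 2 in the RefSeq gene order and differed in opposite directions. Together the 20 sialyltransferase genes gave 13 past the limit, 7 of them lower and 6 higher without fucose, where 56.5% of all genes were lower.

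Galnt genes start O-linked chains by placing N-acetylgalactosamine on serine or threonine, and they were the largest family. Of 17 genes 9 were past the limit, 8 of these were lower without fucose, and their median difference was -0.31. Among all genes past the limit 56.5% were lower, and the median was -0.05. Centred on T cell genes the Galnt median was -0.07, with 7 of the 9 below 0, beside 0.20 and 24.1% for all genes. Galnt6 had the largest difference, with an intensity of 137 on fucose and 90.8 without it, or 7.10 and 6.51 on the log2 scale (1.51-fold lower). A difference at least this large was found in 6.86% of the 554 genes of like level. Galnt6 has 1 probe set, so only loess, quantile normalisation and the centrings could change its value. Under each of these it was less than 1.5-fold lower, from -0.55 to -0.35. Galnt9 had 3.38 and 2.82 (-0.55), the latter under the limit. Galnt2, an enzyme of broad peptide range, had 6.06 and 5.63 (-0.43).

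The remaining Galnt genes past the limit lay closer to 0. Galnt12 had 7.50 on fucose and 7.17 without it, Galnt7, which acts on peptides that already carry N-acetylgalactosamine, had 7.32 and 7.01, and Galnt10 had 7.46 and 7.19. Galnt11 had 4.44 and 4.13, and Galnt4 had 4.80 and 4.64. Galnt1, another enzyme of broad range, was the one gene of the family that was higher, with 8.66 and 8.74, and its second probe set gave the same difference of 0.08. The 8 Galnt genes under the limit ran from -0.26 to 0.08, with Galnt3 at 2.67 and 2.76.

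The next step on O-linked chains showed no common direction. C1galt1, which forms core 1, had 5.62 on fucose and 5.20 without it, and its chaperone gene C1galt1c1 had 4.42 and 4.59. None of the 5 Gcnt genes, which make core 2 and I branches, was past the limit. Gcnt1, the core 2 enzyme, had 2.47 on fucose and 3.06 without it (0.59), so it lay above the limit on the array without fucose only. Gcnt2, the I-branching enzyme, had 2.94 and 2.60 on its brightest probe set, and its 3 probe sets ran from -0.33 to 0.39.

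**Figure D2:**
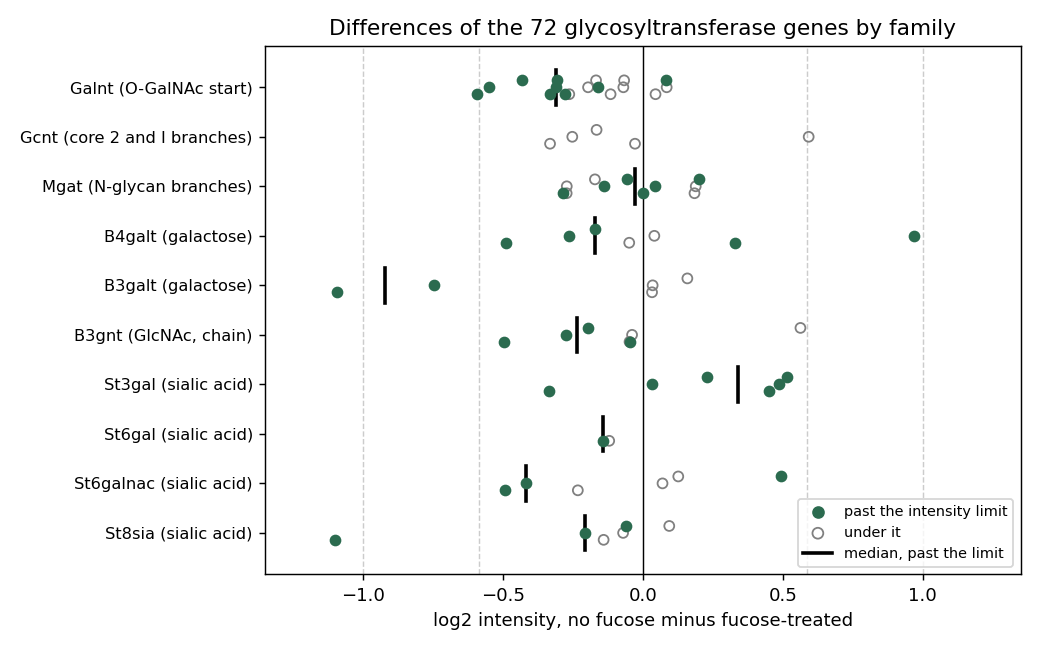
Difference in log2 intensity, without fucose minus fucose-treated (horizontal axis), of each of the 72 genes, in rows by family. Filled points are past the intensity limit, open points under it, black bars are medians of the filled points, and dashed lines mark 1.5-fold and 2-fold. The St3gal bar lies at 0.34 and the Galnt bar at -0.31.

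N-glycan branching genes were close to equal on both arrays. Of 11 Mgat genes 6 were past the limit, 3 lower, 2 higher and 1 at 0, with a median of -0.03. This median was 0.003 with loess and with quantile normalisation. Median centring (0.02) and T cell centring (0.21) raise every difference by a constant large enough to make it positive, so their sign was fixed in advance. Mgat1, which opens the way to hybrid and complex chains, had 3.50 on fucose and 3.54 without it. Mgat2, which starts the second branch, had the largest difference, with 6.78 and 6.50 (-0.29). Mgat3, which adds the bisecting sugar, had 3.04 and 2.99. Mgat4a and Mgat4b, which act on the same branch, had 3.54 and 3.40, and 3.22 and 3.42. Mgat5, which makes the beta-1,6 branch bound by galectins, had the identical value of 4.70 on both arrays. Such identical pairs were found for 875 of the 41345 probe sets (2.12%), and Mgat5 was the single one among these 72 genes.

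Genes for the trimming of N-glycans had a median difference of -0.19 over 13 genes, 8 of them below 0 (61.5%, beside 56.5% of all genes past the limit). Man1a2, a Golgi mannosidase, had 6.44 on fucose and 5.94 without it (-0.50). Manea, the Golgi endomannosidase, had -0.46, and Man2a1, which acts between Mgat1 and Mgat2, had -0.43. None of these genes reached 1.5-fold.

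Galactosyltransferases of the B4galt family differed in both directions. B4galt1, the main enzyme that makes N-acetyllactosamine, had 7.96 on fucose and 7.79 without it. B4galt3 had 5.38 and 4.89 (-0.49), and B4galt5, a lactosylceramide synthase, had 6.02 and 5.76 (-0.27). B4galt6, the other lactosylceramide synthase, had an intensity of 5.99 on fucose and 11.7 without it, or 2.58 and 3.55, a 1.96-fold higher value (0.97). B4galt6 was thus past the limit through the array without fucose alone. A difference at least this large was found in 1.62% of 555 genes of like level. As B4galt6 passed the limit through the array where it was higher, this percentage is a description and no support for an unusual difference. B4galt7 had 3.56 and 3.89 on its brighter probe set (0.33) and -0.08 on the other. The 5 genes past the limit had a median of -0.17, or 0.07 once centred on T cell genes, beside 0.20 for all genes so centred.

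Both B3galt genes past the limit were lower without fucose, and each passed it through the fucose-treated array alone. B3galt4, which makes the ganglioside GM1, had an intensity of 11.7 on fucose and 5.48 without it, or 3.55 and 2.45, a 2.14-fold lower value (-1.10). A difference at least this large was found in 0.903% of 554 genes of like level. B3galt6, which adds the second galactose of the glycosaminoglycan linker, had 10.5 and 6.26, or 3.39 and 2.65, a 1.68-fold lower value (-0.75), and 2.71% of genes of like level differed as much. Since both genes passed the limit through the array where they were higher, these percentages are descriptions and no support for an unusual difference. With centring on the T cell genes the differences of B3galt4 and B3galt6 were -0.85 and -0.50. B3galt1, B3galt2 and B3galt5 were under the limit, with differences from 0.03 to 0.16.

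Genes that extend chains with N-acetylglucosamine had a median of -0.24 over the 4 B3gnt genes past the limit. With centring on the T cell genes it became 0.01, beside 0.20 for all genes past the limit. B3gnt5, which starts the lacto-series of glycolipids, had 4.18 on fucose and 3.68 without it (-0.50). B3gnt2, the main enzyme of polylactosamine, had 4.33 and 4.28. B3gnt3, which extends core 1, differed by -0.28, and B3gnt9 had 3.29 and 3.09. Of the 3 under the limit, B3gnt8, a partner of B3gnt2, had the largest difference, with 2.45 and 3.01 (0.56).

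Lower values without fucose were most frequent among the bright genes of the set. A mean log2 intensity of 5 was taken as the limit for bright genes after the data had been seen. Of the 14 glycosyltransferase genes that reached it, 13 were lower without fucose, all but Galnt1, and the median of the 14 was -0.30. Among all 5124 genes this bright, 61.5% were lower and the median was -0.08. Once centred on T cell genes, 10 of the 14 were below 0, beside 25.6% of all genes this bright. The other 25 genes past the limit had a median of -0.06, with 14 below 0. The T cell markers lie at such intensities too, and their part in these values was not tested. Over 20 bins of like level, the robust SD of the differences of all genes ran from 0.18 to 0.38, and 19 of the 39 differences were no larger than this SD at their own level, as were 65.1% of all genes past the limit.

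**Figure D3:**
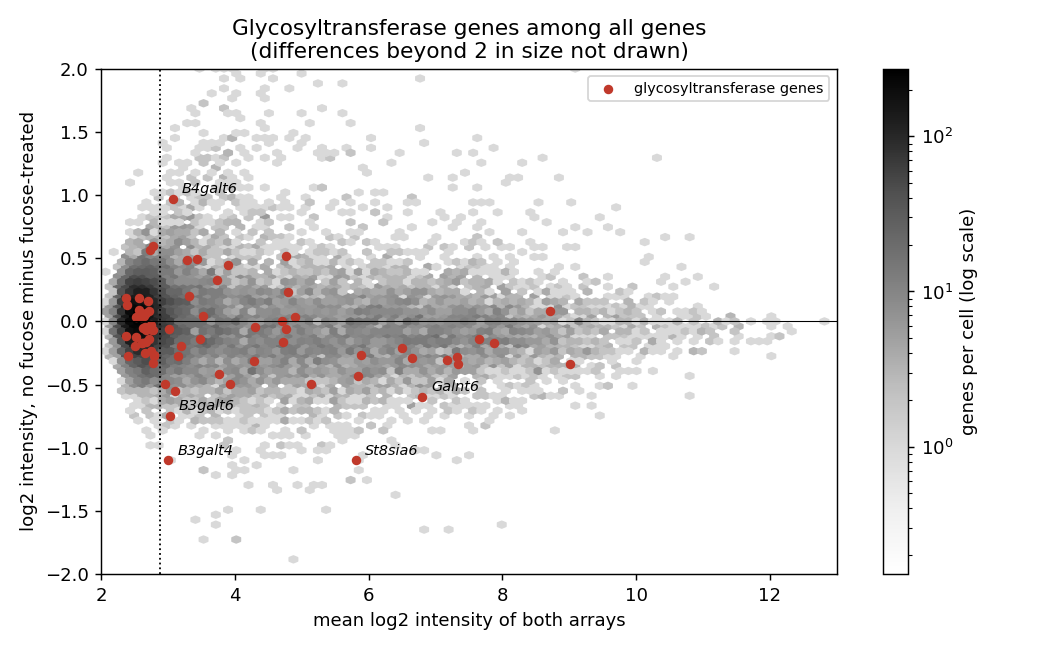
Difference in log2 intensity, without fucose minus fucose-treated (vertical axis), against the mean log2 intensity of both arrays (horizontal axis), with all genes as grey cells shaded by number on a log scale and the 72 glycosyltransferase genes as red points. The dotted line is the intensity limit, and the 5 named genes are past it and differ by 1.5-fold or more.

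Ordered by pathway, the steps of glycolipid synthesis differed in direction from one enzyme to the next. This grouping and the following ones were made after the values had been seen. Ugcg, which makes glucosylceramide, had 8.70 on fucose and 8.23 without it (-0.48). Of the lactosylceramide synthases B4galt5 was lower and B4galt6 higher. St3gal5, the next enzyme, was higher, whereas St8sia1, B4galnt1 (9.90 and 9.54), which makes GM2, and B3galt4 were lower, and St3gal2, which acts after B3galt4, was higher. St6galnac6, which acts on gangliosides too, was also higher, and B3gnt5 was lower.

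The linker that joins glycosaminoglycans to proteins is built by 4 enzyme steps. Xylt2 and Xylt1, which place the first xylose, had differences of -0.68 and -0.15. B4galt7 and B3galt6, which add the galactoses, had 0.33 and -0.75, and B3gat3, which closes the linker with glucuronic acid, had -0.39. B4galt7 was higher on 1 of its 2 probe sets.

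The genes whose enzymes can make sialyl Lewis x, the fucosylated ligand of selectins, had differences of both signs. These were 0.59 for Gcnt1, 0.52 for St3gal4, 0.23 for St3gal3, 0.03 for St3gal6 and -0.17 for B4galt1. Fut7, the fucosyltransferase of leukocytes, had 2.71 on fucose and 3.25 without it (0.54), and passed the limit through the array without fucose alone. Fut4 had 2.80 and 2.77, and Gcnt1 and Fut4 were under the limit. The granulocyte precursor genes given above were higher on the same array, for example Elane with 4.11 on fucose and 9.48 without it, and their part in these values was not tested.

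The fucosyltransferase genes, only some of which act on the chains described here, had a median of -0.05 over 5 of 10 genes past the limit. The largest difference among them was in Pofut2, a protein O-fucosyltransferase gene, with -0.69. Fut8, which adds the core fucose of N-glycans, had 5.01 on fucose and 5.34 without it.

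Sugar donors reach the Golgi through transporters, and some of these had lower values without fucose. Of 19 genes of nucleotide sugar supply past the limit, 12 were lower (63.2%) and 7 higher, with a median of -0.09. Among all genes past the limit 56.5% were lower, and the median was -0.05. Slc35a5, a relative of the nucleotide sugar transporters, had 5.78 on fucose and 4.67 without it (-1.11), the one gene of this list past 2-fold. Slc35b4 had 4.75 and 3.94 (-0.81), and Cmah, which turns sialic acid into its glycolyl form, had 9.23 and 8.68 (-0.55). The transporter gene of CMP-sialic acid, Slc35a1, had 4.65 and 4.21, while Cmas, which makes CMP-sialic acid, had 8.07 and 7.99.

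Other glycosyltransferases had a median of -0.25 over 17 genes, 14 of them lower and none past 2-fold, where 56.5% of all genes past the limit were lower. Lfng, which extends O-fucose on Notch, had 8.25 on fucose and 7.54 without it (-0.71). Xylt2 had 5.86 and 5.18, and Eogt, which adds N-acetylglucosamine to extracellular proteins, had 3.60 and 3.10 (-0.50).

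Genes that remove or read these chains had differences of both signs. The 10 genes of glycan removal had a median of 0.10, with the lysosomal hexosaminidase gene Hexa at 7.97 on fucose and 8.43 without it (0.46), Manba at -0.34 and Man2b1 at 0.31. Of 20 measured readers of glycans 7 were past the limit, with a median of 0.01. The galectin gene Lgals1 had 8.97 and 9.68 (0.71), the galectin gene Lgals3 had 4.27 and 4.92 (0.64), and the B cell Siglec gene Cd22 had 3.73 and 3.14 (-0.59). Siglece, a Siglec gene of myeloid cells, was under the limit with 2.48 and 2.76. Of the sulfotransferase genes past the limit, Gal3st2 (2.74 and 3.33), Gal3st3 (2.84 and 3.11) and Chst1 (2.79 and 2.98) passed it through the array without fucose alone, and Chst2 and Chst10 had -0.09 and -0.01.

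**Figure D4:**
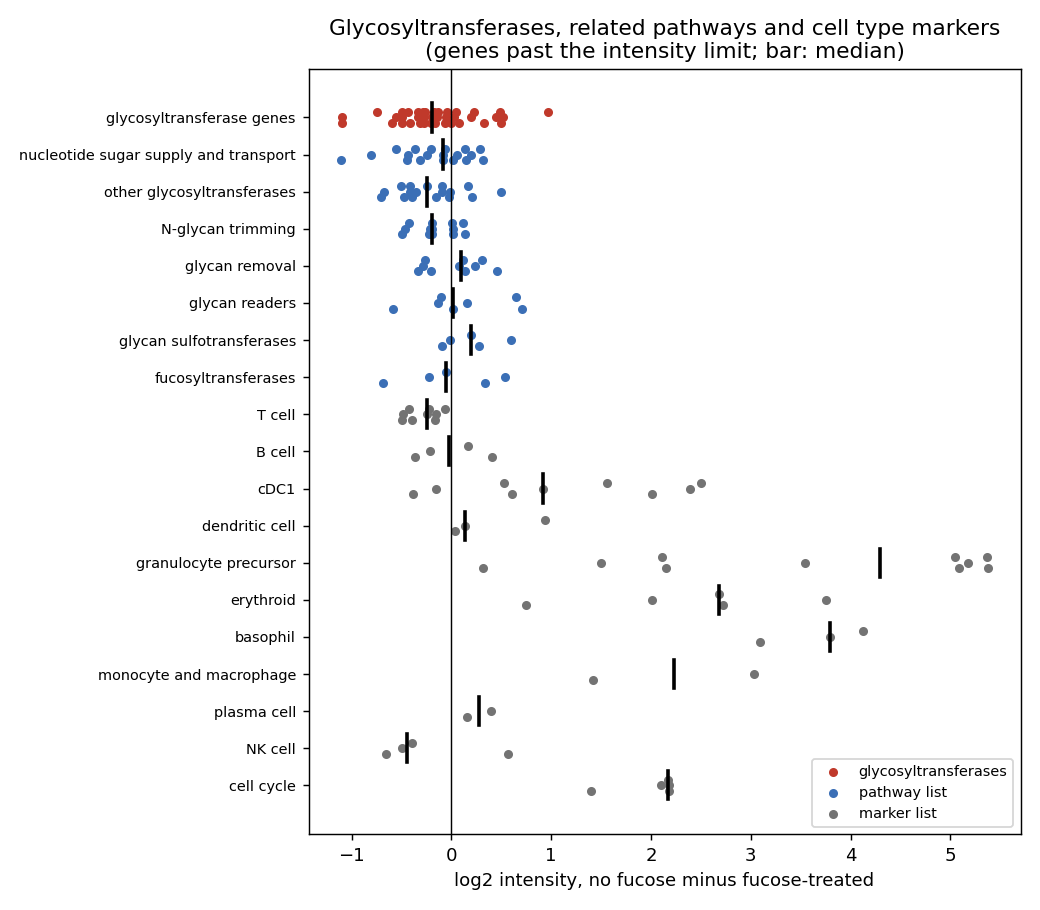
Difference in log2 intensity, without fucose minus fucose-treated (horizontal axis), of the genes past the intensity limit, for the glycosyltransferase genes (red), related pathways (blue) and cell type markers (grey), with a black bar at each median. The glycosyltransferase median lies at -0.20 and that of the T cell markers at -0.24, while the granulocyte precursor median lies at 4.30.

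Some family genes were also on 5 probe sets that name more than 1 gene and were left out. These covered St6gal1, St8sia1, St8sia3, B4galt2 and B3gnt4, and B3gnt4 had no other probe set. Of the 72 genes, 5 had more than 1 probe set of their own.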

How the data were processed

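The authors deposited linear intensities of 41345 probe sets on 2 arrays. Per the submitters' processing notes these come from RMA, whose version, settings and build are not given in the sources used here. Since RMA usually returns log2 values, the scale was checked. The values ran from 2.74 to 9512 and were read as intensities, and log2 was taken. RNA was labelled from 9 ng, per the labels. The sorted values of both arrays differed by 0.028 on average, as after quantile normalisation, so a shift of all genes one way would not be visible.

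Symbols came from the platform annotation, and 23521 probe sets had 1 symbol, 1814 had several and 16010 were not listed. All 72 symbols matched the RefSeq table by Entrez ID. The probe set with the highest mean stood for a gene. Calls are at least 1.5-fold or 2-fold. Like-level bins held 554 or 555 genes.

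Genes are named where they differed by 1.5-fold or more, led their family, had a textbook step (a fixed list), led a pathway list (3 each) or had discordant probe sets, and further genes were named to complete a family or pathway. The members and lists were chosen with earlier results of these data known. The counting was tested on simulated data with clear changes and little noise, which checks the code and not the calls made here. Python 3.11.15, pandas 2.3.3 and statsmodels 0.14.6 (loess, span 0.3) were used.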

Additional observations from a re-analysis of the deposited data

How the results depend on the processing

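No paired analysis was possible because there is 1 array per group, nor could an array be left out. The 8 alternatives were the mean of a gene's probe sets, no limit, a limit at the 67th percentile, loess, quantile normalisation, centring on the median of genes past the limit, centring on the T cell genes and a limit at a mean of 5, the last chosen after seeing the data. The median of the glycosyltransferase genes (-0.20) stayed negative, from -0.30 to -0.12, in all but T cell centring, where it was 0.046. At least 2-fold higher genes numbered 0, but 1 with either centring. At least 2-fold lower genes numbered 2, but 1 with either higher limit and 0 with T cell centring. At least 1.5-fold higher genes numbered 1, but 2 with no limit or loess, 5 with T cell centring and 0 with either higher limit. At least 1.5-fold lower genes numbered 4, but 3 with loess, quantile normalisation or median centring, and 2 with T cell centring or either higher limit. A higher limit leaves fewer genes (24 and 14 of the 39), and centring subtracts 1 value from every difference; the cause of the change with loess was not tested. Each of the 5 genes past 1.5-fold has 1 probe set, so only loess, quantile normalisation and the centrings could change its value. The centrings subtract -0.05 (median) and -0.24 (T cell genes) from every difference, which could not turn the direction of any of the 5. With loess and quantile normalisation none of the 5 changed direction. Low signal limits the differences of dim genes, B3galt4, B3galt6 and B4galt6 among them.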
